A study of Mus musculus with 12 samples.

Results

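The major histocompatibility complex (MHC) class II genes were examined in RNA-seq of the mouse adrenal cortex. They were 8 genes chosen by name, *H2-Aa*, *H2-Ab1*, *H2-Eb1*, *Cd74*, *Ciita*, *H2-DMa*, *H2-DMb1*, and *Cd86*, and all 8 were found among the 49585 genes counted in each mouse. The study compared 4 mice on a low-fat diet (LFD, called a normal diet in the labels), 4 mice on a high-fat diet (HFD), and 4 HFD mice that also received icosapent ethyl, the ethyl ester of eicosapentaenoic acid, a long-chain omega-3 fatty acid. Feeding began at 6 weeks of age and lasted 20 weeks, with fat providing 10% of the energy of the LFD and 60% of that of the HFD, and icosapent ethyl was given for the last 10 weeks. The labels give the genotype Fads2-/- for all 12 mice, whereas the methods of the study describe male wild-type C57BL/6J mice, and *Fads2* was counted in every mouse (452 to 2181 CPM). CPM are counts divided by the library size, after scaling by the trimmed mean of M values (TMM) method over the 12 mice.

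MHC class II molecules are pairs of an alpha and a beta chain that display peptides from engulfed material to CD4+ T cells. The pairs assemble in the endoplasmic reticulum with the invariant chain, which is degraded in endosomes by cathepsins, and the class II-like molecule DM then exchanges its last fragment for an antigenic peptide. Transcription depends on CIITA, a coactivator recruited to factors bound at the X and Y boxes of the promoters, and in most tissues the genes are used mainly by dendritic cells, macrophages, and B cells.

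Counts summed to between 34785979 and 67295963 per mouse, and no library was a copy of another. The tissue had the defining genes of adrenocortical cells, with summed levels of 10 markers from 49157 to 108181 CPM, and the study describes the cortex as dissected from the medulla. The 12 markers of the chromaffin cells of the medulla were also present in every mouse, at 6335 to 22289 CPM in LFD mice, 3062 to 9882 CPM in HFD mice, and 5459 to 10789 CPM in icosapent ethyl mice. In such bulk tissue, fewer class II-expressing cells and less class II RNA per cell cannot be told apart, and each value below applies to the whole piece of tissue.

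The promoters of *H2-Aa* and *H2-Eb1* are shown because their genes encode a chain of I-A and a chain of I-E that moved together over the mice, and because the boxes through which CIITA acts lie in them. The stretches are 80 bases of the RefSeq promoter windows (GRCm38.p6) on chromosome 17, where the class II locus lies, written from 5′ to 3′ on the strand of the gene. They are chr17:34287852-34287931 (minus strand) for *H2-Aa* and chr17:34305748-34305827 (plus strand) for *H2-Eb1*, and capitals mark the matches to the motifs given below, with the full palindrome around the X2 letters in *H2-Aa*.
H2-Aa: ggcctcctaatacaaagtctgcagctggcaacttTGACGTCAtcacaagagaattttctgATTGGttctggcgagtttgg
H2-Eb1: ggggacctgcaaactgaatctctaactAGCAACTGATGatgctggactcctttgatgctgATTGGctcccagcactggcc

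Windows from 250 bases before to 50 bases after the start site were found for 4 of the 8 genes (*H2-Aa*, *H2-Eb1*, *H2-DMb1*, and *H2-DMa*, the last with 2 windows). Both strands were searched for the Y box core ATTGG, the X1 box core (AG, any 2 bases, AC, any base, GATG), and the X2 box core TGACG. *H2-Eb1* held AGCAACTGATG at position -92 from the start site and ATTGG at position -59 and, on the other strand, at position -35. *H2-DMb1* held AGTAACTGATG at position -95 and ATTGG at position -61. *H2-Aa* held ATTGG at position -48 and TGACG on both strands, at the overlapping positions -74 and -71, and no match to the X1 letters. *H2-DMa* held ATTGG at position -198 in 1 of its windows. ATTGG was found in 37.4%, TGACG in 20.8%, and the X1 core in 0.968% of 32851 windows of the same length, and the X1 core together with ATTGG was found in 0.387%, TGACG together with ATTGG in 7.73%. These matches are to letters only and do not show that a factor was bound in these mice.

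All loci are given on GRCm38, in the annotation of GENCODE M21, and cover the whole gene. *H2-Aa* (ENSMUSG00000036594), the alpha chain of I-A, was annotated at chr17:34282744-34287823 on the minus strand, and *H2-Ab1* (ENSMUSG00000073421), its beta chain, at chr17:34257689-34269419 on the plus strand. *H2-Eb1* (ENSMUSG00000060586), the beta chain of I-E, was annotated at chr17:34305867-34316674, *H2-DMa* (ENSMUSG00000037649) at chr17:34119541-34139101, and *H2-DMb1* (ENSMUSG00000079547) at chr17:34153072-34160230, all on the plus strand. The invariant chain gene *Cd74* (ENSMUSG00000024610) lies at chr18:60803848-60812652 on the plus strand. *Ciita* (ENSMUSG00000022504) and *Cd86* (ENSMUSG00000022901), which encodes a costimulatory ligand of CD28, lie on chromosome 16, at chr16:10480059-10528418 on the plus strand and chr16:36603869-36666081 on the minus strand.

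The chain genes were among the more highly counted genes of the tissue. Per kilobase of exon, the mean level over the 12 mice was 237 CPM for *Cd74*, 95.7 for *H2-Eb1*, 81.9 for *H2-Ab1*, and 56.6 for *H2-Aa*. The DM genes were lower, at 8.31 CPM per kilobase for *H2-DMb1* and group means of 3.59 to 4.72 for *H2-DMa*, and *Cd86* (1.24) and *Ciita* (0.307) were the lowest. Exon lengths join all annotated transcripts of a gene, and without division by length *H2-Aa* (215 CPM) was above *H2-Ab1* (210.4 CPM) and *H2-Eb1* (186 CPM). *Ciita* was counted 68 to 258 times and *Cd86* 138 to 291 times per mouse, against at least 5281 times for each chain gene. The alpha chain of I-E was represented by the entry *H2-Ea-ps*, which had 0 counts in all 12 mice, where 3 counts correspond to between 0.0446 and 0.0862 CPM. C57BL/6 mice are known to lack a working I-E alpha chain. Reads that *H2-DMb1* shares with its close relative *H2-DMb2* could not be reassigned, so its counts are uncertain. *H2-Eb1*, *Ciita*, and *H2-DMa* overlap genes on the opposite strand (*Gm20513*, *Dexi*, and *Brd2* among them), whose reads the strand-specific counting kept apart. *Cd74* overlaps the microRNA gene *Mir5107* on the same strand, where strand-specific counting does not keep reads apart.

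The comparison of HFD with LFD mice asked whether diet-induced obesity altered the adrenal cortex. The 4 HFD mice had *H2-Aa* levels of 168, 226, 205, and 197 CPM (replicates 1 to 4), and the LFD mice 206, 257, 266, and 298 CPM (replicates 2, 5, 6, and 7). LFD replicates 5, 6, and 7 were thus above all HFD mice, while LFD replicate 2 lay among them. The means were 199 ± 23.9 and 257 ± 37.8 CPM (SD, n = 4), a log2 fold change of -0.37 (standard error, SE, 0.12), or 22.8% less in HFD mice. With edgeR's quasi-likelihood test over all genes, the Benjamini-Hochberg adjusted p was 0.118.

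*Cd74*, the invariant chain and the most abundant of these RNAs, was at 305, 433, 391, and 376 CPM in HFD mice and at 345, 469, 488, and 528 CPM in LFD mice. LFD replicate 2 was below 3 of the 4 HFD mice for this gene. The log2 fold change of *Cd74* was -0.29 (SE 0.14; edgeR, Benjamini-Hochberg adjusted p = 0.247). *H2-Ab1* ranged from 158 to 222 CPM in HFD mice and from 198 to 285 CPM in LFD mice (log2 fold change -0.35, SE 0.13). *H2-Eb1* ranged from 145 to 199 CPM in HFD mice and from 171 to 247 CPM in LFD mice (-0.32, SE 0.13). The groups overlapped for both chains, and their adjusted p were 0.146 and 0.164 by edgeR with Benjamini-Hochberg adjustment.

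The genes of the peptide editor DM had differences of a similar size. *H2-DMa* averaged 12.4 ± 1.25 CPM in HFD mice and 16.3 ± 2.44 CPM in LFD mice (SD, n = 4), a log2 fold change of -0.40 (SE 0.14). *H2-DMb1* averaged 12.4 ± 2.06 and 16.3 ± 2.32 CPM, a log2 fold change also of -0.40 (SE 0.16). Neither passed the test (edgeR, Benjamini-Hochberg adjusted p = 0.131 and 0.164).

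*Cd86*, which supplies the second signal for T cell activation beside the peptide and its class II molecule, had the largest difference of the 8 genes. Its levels were 3.43, 3.50, 4.38, and 3.12 CPM in HFD mice and 3.95, 5.55, 6.48, and 6.70 CPM in LFD mice. HFD replicate 3 was above LFD replicate 2, and the other mice separated by group. The log2 fold change was -0.66 (SE 0.21), or 36.5% less in HFD mice, with a Benjamini-Hochberg adjusted p of 0.111 by edgeR and 0.0320 by DESeq2.

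*Ciita*, the coactivator on which transcription of the class II genes depends, did not share this pattern. It was at 2.87, 4.99, 1.65, and 1.85 CPM in HFD mice and at 1.67, 4.50, 2.05, and 2.59 CPM in LFD mice. The lowest and highest values were both in HFD mice, and the groups overlapped throughout. The log2 fold change was 0.07 with a 95% interval from -0.88 to 1.03, which reaches from 45.7% less to 103.6% more RNA (edgeR, Benjamini-Hochberg adjusted p = 0.936).

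**Figure D1:**
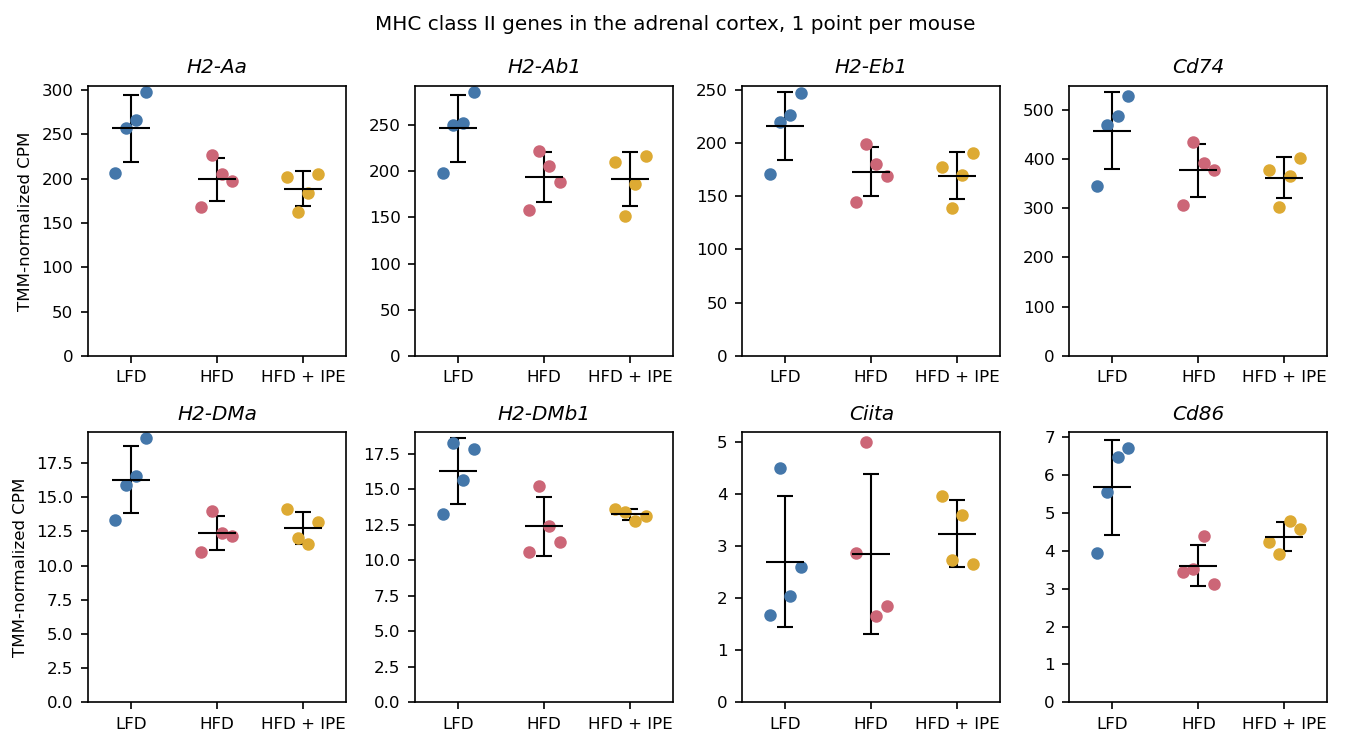
TMM-normalized CPM (vertical axes from 0) of the 8 MHC class II genes in LFD, HFD, and icosapent ethyl mice (HFD + IPE). Points are mice in the order of their replicate numbers, and bars are the mean ± SD of 4 mice; for all 8 genes, the first LFD point (replicate 2) is the lowest of its group, and the groups overlap in HFD versus LFD mice for all 8 genes.

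By edgeR, 0 of the 8 class II genes passed an adjusted p of 0.05 in HFD versus LFD mice, where 1.45% of the 15909 genes tested did. An unadjusted p below 0.05 was found for 6 of them (all but *Cd74* and *Ciita*), all lower in HFD mice, which compares with 12.5% of all genes lower at that p. DESeq2 called 1 of the 8, *Cd86*, where it called 12.3% of all genes. The fold change was below 0 for 7 of the 8, as it was for 51.8% of all genes, and the median log2 fold change was -0.36 over the 8 genes and -0.015 over all genes. The groups did not overlap for 0 of the 8, where they did not overlap for 13.5% of all genes. Without LFD replicate 2, 7 of the 8 were lower in HFD mice without overlap, where 8.28% of all genes were, and edgeR still called 0 of them. That mouse was the lowest LFD mouse for all 8 genes, so this omission is singled out by the same values and is no separate support. Leaving out any other mouse gave 0 to 3 of the 8, where 6.75% to 12.2% of all genes were lower without overlap. The 6 chain and DM genes moved together over the mice (r of at least 0.812), so counts among the 8 are not counts of independent genes.

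The icosapent ethyl mice were then set against the same HFD mice to ask whether the supplement altered expression under the HFD. Their *H2-Aa* levels were 202, 162, 184, and 206 CPM (replicates 1 to 4), all within or just below the range of the HFD mice. The mean was 189 ± 19.8 CPM (SD, n = 4), and the log2 fold change from HFD was -0.08, with a 95% interval from -0.33 to 0.18. *Cd74* was at 378, 303, 365, and 402 CPM, with a log2 fold change of -0.06 (95% interval -0.34 to 0.23). *H2-Ab1* and *H2-Eb1* had log2 fold changes of -0.01 (-0.33 to 0.30) and -0.03 (-0.31 to 0.25). For these chains, the intervals reached from 21.2% less to 23.2% more RNA in the treated mice, and differences inside them could not be told from none with 4 mice per group.

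*H2-DMa* (log2 fold change 0.04, 95% interval -0.25 to 0.33) and *H2-DMb1* (0.10, -0.22 to 0.41) were also close to their HFD levels. *H2-DMb1* varied little among the treated mice, from 12.8 to 13.6 CPM, against 10.6 to 15.2 CPM in HFD mice. *Ciita* was at 3.95, 2.74, 3.59, and 2.66 CPM, with a log2 fold change of 0.18 (95% interval -0.62 to 0.99). *Cd86* was at 4.22, 3.90, 4.78, and 4.57 CPM, between the HFD and the LFD means. Replicates 3 and 4 were above all HFD mice, replicates 1 and 2 were above all but the highest, and the log2 fold change of 0.28 had a 95% interval from -0.10 to 0.66. All 8 genes had an adjusted p of 0.9997 (edgeR, Benjamini-Hochberg).

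By edgeR, 0 of the 8 genes passed in icosapent ethyl versus HFD mice (0% of the 15913 genes tested), and DESeq2 called 0 of the 8 (0.0268% of all genes). At an unadjusted p below 0.05, edgeR gave 0 of the 8, against 1.39% of all genes. The fold change was below 0 for 4 of the 8, as it was for 48.9% of all genes, and the groups did not overlap for 0 of the 8, against 1.14% of all genes.

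Icosapent ethyl mice were also compared with LFD mice, which differed from them in both diet and supplement. This comparison uses the LFD mice of the first and the treated mice of the second, so its values are not independent of theirs. *H2-Aa* had a log2 fold change of -0.45 (SE 0.12; edgeR, Benjamini-Hochberg adjusted p = 0.237), and the highest icosapent ethyl mouse (205.6 CPM) lay just below the lowest LFD mouse (206.4 CPM). The log2 fold changes were -0.36 for *H2-Ab1*, -0.35 for *H2-Eb1*, -0.34 for *Cd74*, -0.35 for *H2-DMa*, and -0.30 for *H2-DMb1*. *Cd86* had a log2 fold change of -0.37 (SE 0.20), and that of *Ciita* was 0.26 (SE 0.32).

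By edgeR, 0 of the 8 genes passed in icosapent ethyl versus LFD mice, as did 0% of the 15935 genes tested, and DESeq2 called 0 of the 8 where it called 2.69% of all genes. An unadjusted p below 0.05 was found for 6 of the 8 by edgeR (all but *Cd86* and *Ciita*), all lower in the treated mice, against 6.67% of all genes lower at that p. The groups did not overlap for 1 of the 8, *H2-Aa*, where 3.69% of all genes were lower without overlap. The fold change was below 0 for 7 of the 8 and for 50.6% of all genes. Without LFD replicate 2, the lowest LFD mouse for all 8 genes, 7 of the 8 were lower without overlap, where 5.96% of all genes were. This omission is likewise singled out by the same values. Leaving out any other mouse gave 1 or 2 of the 8, where 4.54% to 8.43% of all genes were lower without overlap. As above, counts among the 8 are not counts of independent genes. With the size factors of DESeq2 in place of TMM the groups overlapped for all 8, where 3.8% of all genes were lower without overlap.

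**Figure D2:**
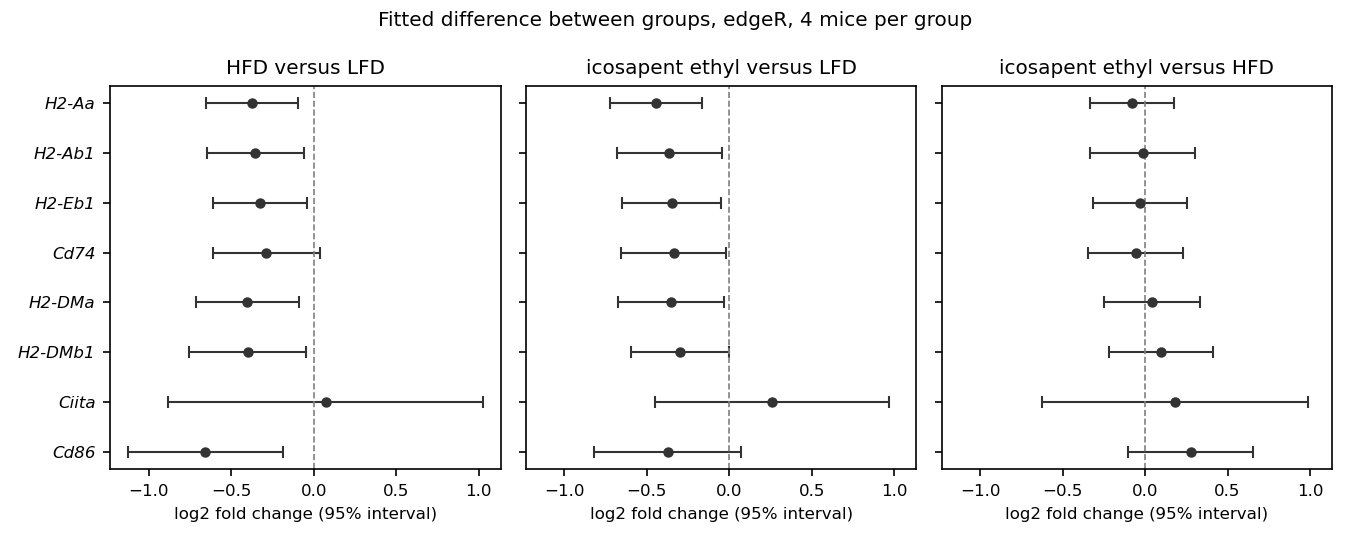
Fitted log2 fold changes (horizontal axes) of the 8 class II genes in 3 comparisons, with points for the edgeR estimates and bars for 95% intervals, 4 mice per group. In HFD versus LFD mice and icosapent ethyl versus LFD mice, 7 of 8 estimates are below 0, and in icosapent ethyl versus HFD mice, all 8 intervals include 0; no gene passed an adjusted p of 0.05 in any of the 3.

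The chain genes kept nearly fixed proportions to each other in every mouse. *H2-Aa* itself varied with a coefficient of variation (CV) of 18.8% over the 12 mice, while the count ratio of *H2-Ab1* to *H2-Aa* stayed between 0.936 and 1.05 (CV 4.02%). The ratio of *Cd74* to *H2-Aa* had a CV of 4.54%, and that of *H2-Eb1* to *H2-Aa* 3.67%. The ratio of *H2-DMa* to *H2-Aa* had a CV of 5.93%, whereas the ratios of *Cd86* (14.9%) and *Ciita* (38.4%) to *H2-Aa* varied more. Among the chain ratios, *H2-Eb1* to *H2-Aa* averaged 0.840 in LFD mice, 0.869 in HFD mice, and 0.897 in icosapent ethyl mice. All LFD mice (at most 0.855) were below all HFD mice (0.856 to 0.880) in this ratio, by a margin smaller than the spread of either group. It was 1 of 2 among 13 ratios computed whose HFD and LFD values did not overlap, was picked out for that reason, and was not tested.

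Over the 12 mice, Pearson's r of log2 CPM was 0.967 to 0.992 for the 6 pairs of chain genes (*H2-Aa*, *H2-Ab1*, *H2-Eb1*, *Cd74*), with Spearman's rho from 0.895 to 0.986. With the group means subtracted, r was 0.966 to 0.990, and without the 2 mice farthest from the median it was 0.940 to 0.984. For the 15 pairs that also include the DM genes, r was at least 0.812, and at least 0.701 with group means subtracted. Pairs with *Ciita* had r from 0.0253 to 0.380, and *Cd86* reached at most 0.788. With group means subtracted, pairs with *Ciita* had r from 0.101 to 0.691, the highest with *H2-DMb1*, and *Cd86* reached at most 0.723. The values of a mouse share a library and its scaling, so these correlations are given as a description.

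**Figure D3:**
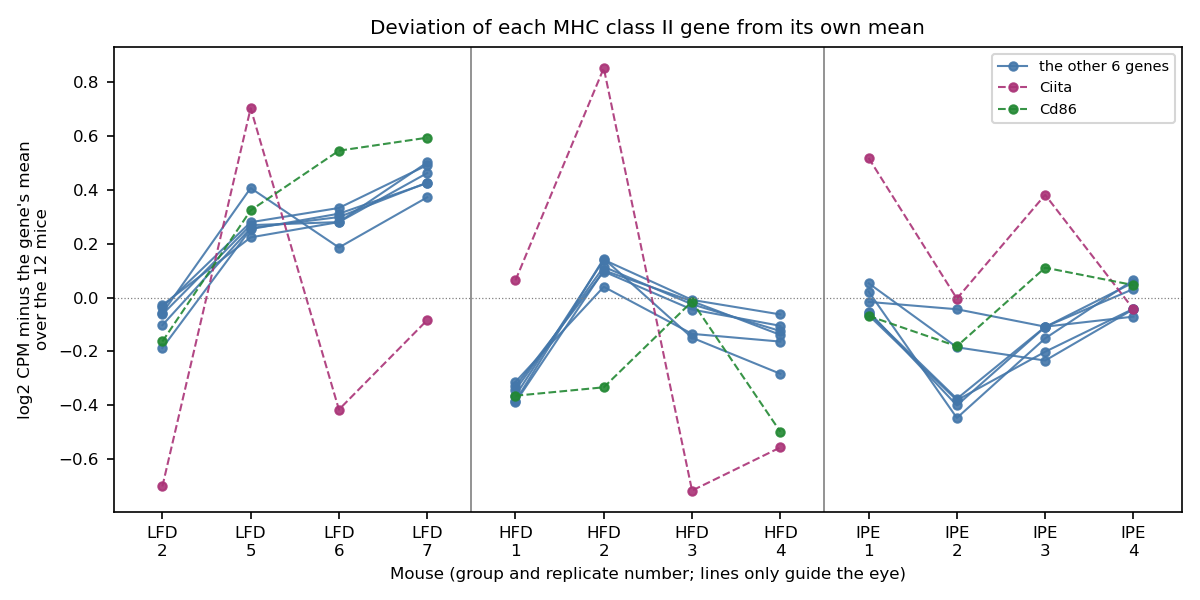
Log2 CPM of each class II gene minus its own mean over the 12 mice (vertical axis), for each mouse by group and replicate number (horizontal axis; IPE, icosapent ethyl). The 6 genes drawn in blue (*H2-Aa*, *H2-Ab1*, *H2-Eb1*, *Cd74*, *H2-DMa*, *H2-DMb1*) follow one another from mouse to mouse with r of at least 0.812, *Cd86* follows them less closely, and *Ciita* departs from them, with its highest value in HFD replicate 2.

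Outside the 8 class II genes, the profiles most like the mean of the 4 chain genes over the 12 mice, among 13466 genes with a mean of at least 1 CPM, were *Uba7* (r = 0.938), *Ctsc* (0.920), *Cd72* (0.907), *Lilra5* (0.902), and *Irf5* (0.899), followed by *Zbp1*, *Lmf2*, *Fcgr1*, *Hcls1*, and *Neurl3* (0.884 to 0.871). *Uba7* encodes the activating enzyme of the ubiquitin-like protein ISG15, *Ctsc* a lysosomal protease, *Irf5* an interferon regulatory factor, and *Fcgr1* a high-affinity Fc receptor. The order was sensitive to how likeness was measured, since 5 of the 10 stayed among the first 10 by Spearman's rho, and 0 of 10 did with group means subtracted. With group means subtracted, r was 0.769 to 0.911 for these 10 genes. It was 0.0045 to 0.815 (*Star*) for adrenocortical markers and -0.23 (*Egfl7*) to 0.818 (*Pecam1*) for endothelial markers, so such likeness was not particular to immune genes. The log2 fold changes of the 10 genes in HFD versus LFD mice ran from -0.63 (*Lilra5*) to -0.10 (*Lmf2*), and each adjusted p was 0.0860 or more by edgeR (Benjamini-Hochberg).

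Other genes of the class II pathway were compared through lists of related genes. Beside the list counts in HFD versus LFD mice stand the shares over all genes, 1.45% called by edgeR and 12.3% by DESeq2. At an unadjusted p below 0.05 by edgeR, 12.5% of all genes were lower, whereas the list counts at that p hold both directions. The groups did not overlap for 13.5% of all genes. Of 11 tested chains, editors, and processing enzymes, 1 fell in HFD versus LFD mice and none rose. It was *Ctss*, cathepsin S, the protease that removes the invariant chain in antigen-presenting cells, at 144, 136, 162, and 139 CPM in HFD mice and 246, 311, 226, and 319 CPM in LFD mice. These groups did not overlap, and the log2 fold change was -0.93 (SE 0.12; edgeR, Benjamini-Hochberg adjusted p = 0.0340). The groups also did not overlap for *Ctsl*, cathepsin L (-0.47), and *Ifi30*, a lysosomal thiol reductase (-0.32), neither of which passed (adjusted p = 0.0760 and 0.0937). The median of the list was -0.13, closer to 0 than that of the 8 class II genes.

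Of 21 tested regulators of class II transcription, edgeR called 0 in HFD versus LFD mice, and the median log2 fold change was 0.11. An unadjusted p below 0.05 was found for 4, with *Irf1*, *Spi1*, and *Ifngr1* lower and *Ep300* higher. At that p, 12.5% of all genes were lower alone, which is not a like share for a count in both directions. The subunits of the complex that binds the X box had values of 0.01 (*Rfx5*), -0.25 (*Rfxap*), and -0.19 (*Rfxank*), and none passed. The groups did not overlap for *Spi1*, which encodes the myeloid factor PU.1 (-0.56), *Irf1*, a target of interferon gamma (-0.51), *Ifngr1*, a chain of its receptor (-0.21), and *Ep300*, a histone acetyltransferase (0.27).

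Class I presentation, through which peptides made in the cytosol reach CD8+ T cells, had 2 called genes among 16 tested, both of which fell in HFD mice. They were *Psmb8* (log2 fold change -0.64, SE 0.09) and *Psmb10* (-0.48, SE 0.08), catalytic subunits of the immunoproteasome, each with an adjusted p of 0.0376 (edgeR, Benjamini-Hochberg). *Psmb8* lay between 34.6 and 41.3 CPM in HFD mice and between 54.0 and 65.2 CPM in LFD mice. The third such subunit, *Psmb9*, had a log2 fold change of -0.49 without overlap of the groups (adjusted p = 0.0821), while *B2m*, the light chain of class I molecules, was at -0.05. The groups also did not overlap for *Psme1*, a subunit of the proteasome activator (-0.38), and *Tapbp*, tapasin (-0.29).

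Of 7 tested costimulation genes besides *Cd86*, edgeR called 0, and 2 had an unadjusted p below 0.05. *Cd83*, a marker of mature dendritic cells that stabilizes class II molecules at the surface, had a log2 fold change of -0.94 (adjusted p = 0.0937), and *Cd28*, the T cell receptor for CD86, one of 1.30 (adjusted p = 0.0736), both without overlap of the groups. *Cd80*, the other ligand of CD28, was counted at most 33 times in a mouse.

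Over these 4 lists, edgeR called 3 of 55 genes in HFD versus LFD mice (1.45% of all genes) and DESeq2 11 (12.3%). In icosapent ethyl versus HFD mice, edgeR called 0 of 56, with 1 at an unadjusted p below 0.05 (*Psmb8*, log2 fold change 0.23), and DESeq2 called 0. At that p, edgeR gave 1.39% of all genes. In icosapent ethyl versus LFD mice, edgeR called 0 of 55, with 12 at an unadjusted p below 0.05, and DESeq2 called 4 (2.69% of all genes). At that p, 6.67% of all genes were lower alone, while the count of 12 was not split by direction, so the 2 are not like for like. *Ctss* had log2 fold changes of 0.15 and -0.77 in these comparisons, and *Psmb10* of 0.13 and -0.34. The edgeR calls in HFD versus LFD mice numbered 0 over all genes when any of 6 of the 8 mice was left out (HFD replicates 2 to 4, LFD replicates 5 to 7).

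Markers of the cells that commonly carry class II molecules were compared in the same mice, and those that passed the test were of macrophages and fell in HFD mice. Over the 9 marker lists, edgeR called 5 of 87 genes (1.45% of all genes) and DESeq2 called 23 (12.3%). The 6 pan-leukocyte markers summed to 121 to 148 CPM in HFD mice, 155 to 212 CPM in LFD mice, and 130.2 to 152 CPM in icosapent ethyl mice, and all 6 had log2 fold changes below 0 in HFD versus LFD mice (median -0.46), among them *Ptprc*, which encodes CD45 (-0.30), *Cd52* (-0.74), and *Coro1a* (-0.36). edgeR called 0 of the 6, with 5 at an unadjusted p below 0.05, and the sums of all LFD mice were above those of all HFD mice. The 12 macrophage markers summed to 539 to 651 CPM in HFD mice, 753 to 1129 CPM in LFD mice, and 587 to 724 CPM in icosapent ethyl mice. Of these 12, 5 fell by edgeR (*Cd68* by 1.25, *Lyz2* by 0.96, *C1qa* by 0.74, *C1qc* by 0.80, and *Aif1* by 0.79 on the log2 scale), while *Csf1r*, the receptor that macrophages need for survival, was at -0.11 and *Adgre1*, which encodes F4/80, at -0.48, neither passing. In all, 9 of the 12 had fold changes below 0 and 3 above (*Mrc1* 0.24, *Mertk* 0.22, and *Cd163* 0.11). The 12 dendritic cell markers summed to 81.3 to 119 CPM in HFD mice and 98.6 to 146 CPM in LFD mice. Much of this sum was *Bst2*, which averaged 68.1 CPM over the 12 mice and was at -0.14. Of the 12, 0 were called by edgeR and 3 had an unadjusted p below 0.05, with a median of -0.22. Among the 12, *Flt3* was at -0.99, *Zbtb46* at -0.05, and *Itgax*, which alone had no overlap of the groups, at -0.70. Of the 12, 8 had fold changes below 0 and 4 above (*Ccr7* 0.32, *Batf3* 0.29, *Mgl2* 0.14, and *Siglech* 0.10). *Flt3*, *Ccr7*, and *Siglech* each had a mean below 1 CPM over the 12 mice. No marker in these lists was at 0 throughout a group.

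The class II level was also set against markers of these cells. The ratio of *H2-Aa* to *Ptprc* averaged 12.3 ± 1.19 in HFD mice, 13.1 ± 1.70 in LFD mice, and 11.8 ± 2.15 in icosapent ethyl mice (SD, n = 4), with overlapping groups. The ratio of *H2-Aa* to *Csf1r* was 4.01 to 4.68 in HFD mice, 4.65 to 6.40 in LFD mice, and 4.15 to 4.54 in icosapent ethyl mice. The ratio of *Cd86* to *Ptprc* was 0.200 to 0.237 in HFD mice and 0.238 to 0.369 in LFD mice. It was 0.242 to 0.317 in icosapent ethyl mice, above all HFD mice. Of the 13 ratios computed, it was 1 of 2 without overlap between HFD and LFD mice. It was the only 1 without overlap between icosapent ethyl and HFD mice. These ratios were not tested, and the part of cell number in the class II values was not tested.

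B cells also carry class II molecules, and their 10 markers summed to 44.0 to 73.0 CPM in HFD mice and 64.4 to 81.0 CPM in LFD mice, so that the groups overlapped. Of 8 tested markers, 7 had log2 fold changes above 0 in HFD versus LFD mice (median 0.46), with *Ms4a1* at 0.56 and *Cd79a* at 0.29, and *Ighm*, the heavy chain of IgM, was the exception at -0.43 (39.0 to 64.6 CPM in HFD mice and 59.4 to 77.4 CPM in LFD mice). edgeR called 0 of the 8, with 2 at an unadjusted p below 0.05, and the groups did not overlap for *Pax5* (1.51). T cell markers had a median of -0.26, with 5 of 9 below 0 (*Cd3e* -0.34, *Cd3d* -0.26, and *Cd3g* -1.12 among them) and 4 above (*Cd8b1* 0.17, *Cd2* 0.09, *Cd8a* 0.09, and *Lck* 0.05). edgeR called 0 of the 9, with 2 at an unadjusted p below 0.05.

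The chromaffin markers, with a median log2 fold change of -1.25 in HFD versus LFD mice and 0 of 12 called by edgeR (9 at an unadjusted p below 0.05), moved with the same groups. *Th*, *Dbh*, and *Pnmt*, the enzymes of catecholamine synthesis, were at -1.02, -1.20, and -1.18. With the mean of the chromaffin markers as a covariate, an alternative added after the data were seen, *H2-Aa* was at -0.56, *Cd74* at -0.50, and *Cd86* at -0.67, and edgeR called 0 of the 8 genes and 0 over all genes. The 12 chromaffin markers summed to 19135, 12426, 22289, and 6335 CPM in LFD replicates 2, 5, 6, and 7, in which *H2-Aa* was at 206, 257, 266, and 298 CPM. The LFD mouse with the most chromaffin signal was thus the second highest for *H2-Aa*. The part of the chromaffin content in the class II values was not tested beyond this covariate.

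**Figure D4:**
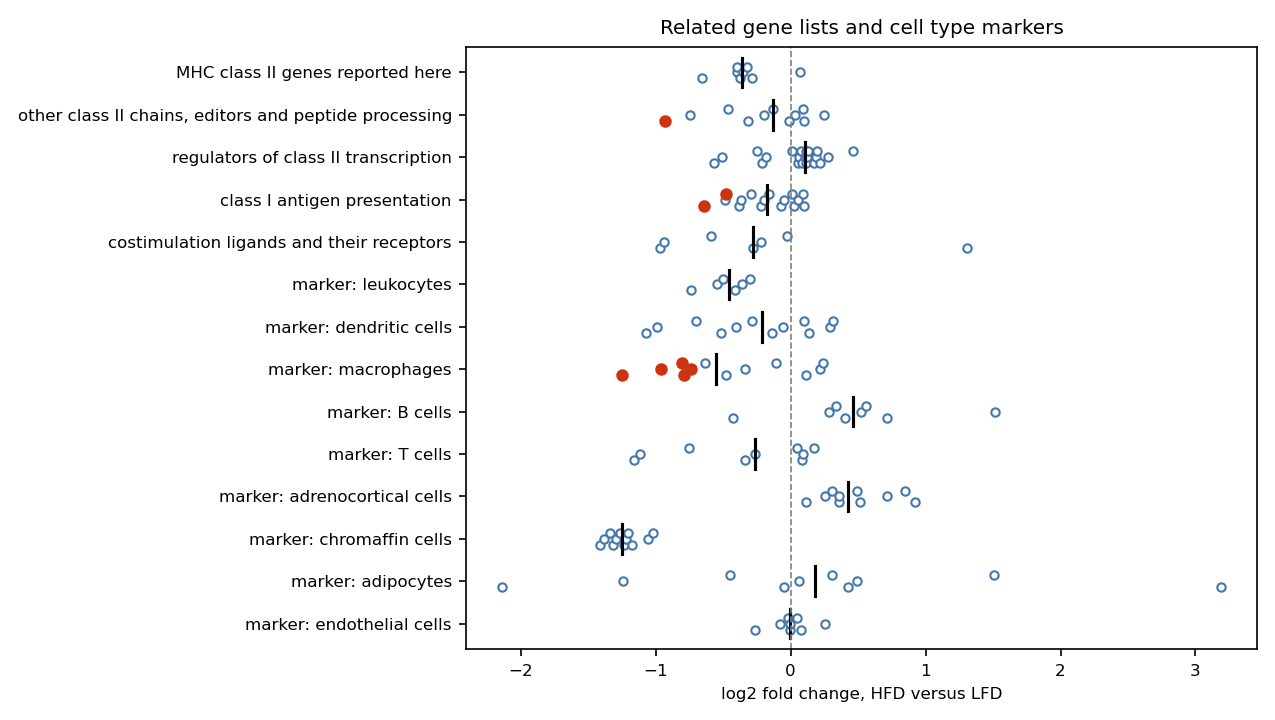
Log2 fold changes in HFD versus LFD mice (horizontal axis) for the 8 class II genes, 4 lists of related genes, and 9 lists of cell type markers, 1 circle per tested gene. Black bars are list medians and filled red circles are genes past an adjusted p of 0.05 by edgeR; the red circles number 8, all below 0 and none among the 8 class II genes, whose median is -0.36, between those of the leukocyte (-0.46) and dendritic cell markers (-0.22).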

How the data were processed

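RNA-seq libraries covered the adrenal cortex of 12 mice, 4 per group, 1 library each. The values deposited by the authors are unnormalized read counts, made from strand-specific total RNA libraries by trimming with cutadapt, alignment to GRCm38 with STAR, and reverse-strand counting on GENCODE M12 with HTSeq 0.6.1p1. Genes were counted in 49585 entries, of which 49326 were named from GENCODE M21 on the same build. Groups and replicate numbers came from the labels. Because the labels do not say more on the origin of the samples, p-values measure the spread between these mice. Mice used in one comparison recur in another.

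Each comparison was fitted on its 8 mice with edgeR 4.0.16 in R 4.3.3 (TMM factors from 0.883 to 1.11, filterByExpr with a minimum count of 10, robust quasi-likelihood F test, Benjamini-Hochberg adjustment over all genes tested, threshold 0.05). Displayed CPM used TMM factors of all 12 mice, and log2 CPM a prior count of 2. Alternatives were DESeq2 1.42.0 (Wald test), all 12 mice in 1 fit, DESeq2's size factors or plain library totals in place of TMM, the filter dropped or raised to 10 counts in every mouse, a threshold of 0.1, and leaving out each mouse. Adding the icosapent ethyl mice to the HFD group and the chromaffin covariate were chosen after seeing the data.

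HFD and icosapent ethyl mice share the numbers 1 to 4. After subtraction of group means, mice with the same number correlated at 0.116 to 0.632 over 16262 genes, so the replicate number was used as a block in an alternative, although a pair with different numbers reached 0.598 and the labels state no pairing. LFD mice share only the number 2 with them.

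The 8 genes, the 4 lists of related genes, and the 9 marker lists were chosen with earlier results of these data known. Named besides the 8 genes were *H2-Ea* or its pseudogene, every listed gene past the threshold, listed genes without overlap of the groups (up to 4 per list and comparison, by size), the first 3 genes of each marker list (1 of them is not reported here), and the 10 genes most like the chain genes. Other genes outside this rule (*Rfx5*, *Rfxap*, *Rfxank*, *B2m*, *Cd80*, and the markers *Mertk*, *Cd163*, *Ccr7*, *Batf3*, *Mgl2*, *Siglech*, *Cd8a*, *Cd8b1*, *Cd2*, *Lck*, *Cfd*, *Retn*, *Cidea*, *Pparg*) were chosen after their values were seen. The same holds for the markers *Egfl7* and *Bst2*. Intervals of 95% come from the edgeR fit. Promoter sequences were from RefSeq. The fit was tested on simulated counts. Members of the lists without an entry, and other experiments of the study, were not analysed here.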

Additional observations from a re-analysis of the deposited data

How the results depend on the processing

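In HFD versus LFD and in icosapent ethyl versus LFD mice, *H2-Aa*, *H2-Ab1*, *H2-Eb1*, *Cd74*, *H2-DMa*, *H2-DMb1*, and *Cd86* kept a fold change below 0 under every alternative run, and leaving out any mouse left 0 of the 8 class II genes called in every comparison. With library totals, the median log2 fold change of all genes in HFD versus LFD mice moved from -0.015 to -0.11, and that of the 8 from -0.36 to -0.46. Counts of calls over all genes moved most. In HFD versus LFD mice, 230 genes were called, against 1965 with DESeq2, 84 with library totals, 556 with all 12 mice in 1 fit, 1396 at an adjusted p below 0.1, 1042 with the icosapent ethyl mice added to the HFD group, 0 with the chromaffin covariate, and 0 to 918 when a mouse was left out (918 without HFD replicate 1, 78 without LFD replicate 2). DESeq2 called 1 class II gene (*Cd86*), and adding the icosapent ethyl mice to the HFD group called 1 (*H2-Aa*, log2 fold change -0.41, edgeR with Benjamini-Hochberg adjusted p = 0.0388). Of the related genes and markers, 8 were called, against 34 with DESeq2, 16 with 12 mice, 21 with the added mice, 24 at 0.1, 0 with the covariate, and 0 to 12 when a mouse was left out. The HFD and LFD groups were separate for 0 of the 8 class II genes (13.5% of all genes), 4 with library totals (13.6%), and 0 to 7 with a mouse left out (15.4% to 23.8%), with 7 without LFD replicate 2, 3 without HFD replicate 2, and 1 without HFD replicate 3. Between icosapent ethyl and HFD mice, DESeq2 called 7 genes, and the groups were separate for 0 of the 8 (1.14% of all genes), 1 with library totals (1.21%), and 0 to 1 with a mouse left out (1.89% to 5.25%; 1 without HFD replicate 2 or 3). The replicate block for this pairing called 0 genes and changed no call. Between icosapent ethyl and LFD mice, 0 genes were called, against 417 with DESeq2 (12 of them in the lists), 2 with 12 mice, and 0 to 1 with a mouse left out, and the groups were separate for 1 of the 8 (7.73% of all genes), 0 with DESeq2's size factors (7.71%), 6 with library totals (6.98%), and 1 to 7 with a mouse left out (9.24% to 14.8%), with 7 without LFD replicate 2 and 2 without LFD replicate 5 or icosapent ethyl replicate 1. The sign turned for *Ciita* in HFD versus LFD mice (-0.36 with the covariate, -0.35 to 0.43 with a mouse left out). In icosapent ethyl versus HFD mice it turned with library totals for *H2-Ab1* (0.0425), *H2-Eb1* (0.0251), and *Cd74* (0.0020), and with the covariate for *H2-Aa* (0.0246), *H2-Ab1* (0.10), *H2-Eb1* (0.0813), and *Cd74* (0.0680). With a mouse left out, that comparison ran from -0.10 to 0.0808 for *H2-Ab1*, -0.11 to 0.0519 for *H2-Eb1*, -0.14 to 0.0190 for *Cd74*, -0.0040 to 0.60 for *Ciita*, and -0.0135 to 0.10 for *H2-DMa*. Of the 10 genes most like the chains, 5 stayed by rho, 5 without the 2 farthest mice, and 0 with group means subtracted. The cause of these changes was not tested. Counts were lowest for *Ciita* (68 to 258 per mouse) and *Cd86* (138 to 291).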

Other observations

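Related genes whose groups did not overlap in icosapent ethyl versus LFD mice included *Ctss* (log2 fold change -0.77), *Ctsl* (-0.35), *Ifi30* (-0.28), *H2-DMb2* (0.49), *Nfyc* (0.25), *Cd83* (-0.78), *Cd28* (0.84), *Psmb8* (-0.41), *Psmb10* (-0.34), *Psmb9* (-0.27), and *Tapbp* (-0.26). Among the cell markers, these were *Cd52* (-0.51), *Coro1a* (-0.21), and *Cd53* (-0.55) of leukocytes, *Cd68* (-0.96), *C1qc* (-0.73), *C1qa* (-0.69), and *Aif1* (-0.64) of macrophages, *Xcr1* (-1.01) of dendritic cells, *Ighm* (-0.40) of B cells, and *Lep* (2.85) of adipocytes. Over the marker lists, edgeR called 0 of 87 genes in this comparison, with 24 at an unadjusted p below 0.05 and 8 called by DESeq2. Of all genes, 6.67% were lower alone at that p, while the count of 24 was not split by direction, and DESeq2 called 2.69%. The icosapent ethyl and LFD groups did not overlap for 7.73% of all genes, and 3.69% were lower without overlap. In icosapent ethyl versus HFD mice, the groups did not overlap for *Jak1* (-0.14) and *Mrc1* (-0.34), against 1.14% of all genes. There edgeR called 0 of 88 marker genes, with 2 at an unadjusted p below 0.05 (1.39% of all genes) and 0 called by DESeq2.

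Markers of cells that do not usually carry class II molecules were also compared in HFD versus LFD mice. Of all genes there, edgeR called 1.45%, and the groups did not overlap for 13.5%. At an unadjusted p below 0.05, 12.5% of all genes were lower alone, while the marker counts below hold both directions. All 10 adrenocortical markers had log2 fold changes above 0 (median 0.42), among them *Star* (0.92), *Cyp11a1* (0.49), and *Nr5a1* (0.36), with 0 called by edgeR, 6 at an unadjusted p below 0.05, and no overlap of the groups for *Cyp11b1* (0.71) and *Mc2r* (0.52). The adipocyte markers had a median of 0.18, with 6 of 10 above 0 (*Adipoq* at 0.49, *Plin1* at 0.31, and *Cidec* at 1.51 among them) and 4 below (*Cfd* -2.14, *Retn* -1.25, *Cidea* -0.45, and *Pparg* -0.05), and *Lep* (3.19) alone had no overlap of the groups. The endothelial markers had a median of -0.0056, with 3 above 0 and 5 below. *Pecam1*, *Cdh5*, and *Kdr* were at -0.01, 0.05, and 0.25, and *Egfl7* was at -0.26. edgeR called 0 of the 10 adipocyte and 0 of the 8 endothelial markers, with 4 and 1 at an unadjusted p below 0.05.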
